A study of Mus musculus with 6 samples.

Results

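The transcriptome described here is that of 3 cultures of neonatal mouse heart cells that received an siRNA directed at Rbm22, labelled si-Rbm22, which make up 3 of the 6 RNA sequencing libraries of the series. They were chosen by their label alone, and all values below are a description of these 3 libraries as one group, with no test. Per the labels, hearts came from C57BL/6J mice on postnatal day 1 (the strain field reads C57BL/6), were dissociated with the Neonatal Heart Dissociation Kit on a gentleMACS machine, and the cells were kept overnight in DMEM with 10% fetal bovine serum. Cultures whose purity was above 97.5% by staining for cardiac troponin T were used, transfected, and collected after 48 h. The labels call the 3 cultures biological replicates. Whether they stem from separate isolations, and how many hearts of which sex went into each, is not stated there, so the spread given below may be in part technical. The other 3 libraries of the series are labelled si-Control (scrambled siRNA, same cells, strain, age and time) and are not compared here.

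The neonatal heart holds cardiomyocytes, which contract, and several cell kinds that do not. Cardiomyocytes carry the sarcomere, in which myosin motors pull on actin filaments under the control of troponin and tropomyosin, and they differ between chambers: atrial cells make the atrial light chains and store the natriuretic peptide encoded by Nppa, whereas ventricular cells make the ventricular light chains. Around them lie endothelial cells of vessels and endocardium, fibroblasts, mural cells of vessels, macrophages, and the mesothelial sheet of the epicardium on the outer surface. The product of Rbm22 is a spliceosome component with a zinc finger.

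The si-Rbm22 libraries held 37344860, 37122220 and 36860678 reads assigned to genes. Of the 18951 genes in the table, 16676 to 16928 had at least 1 read in a library and 13018 to 13114 reached 1 TPM. TPM (length-scaled transcript level, summing to 1e+06 per library) is the scale used below to compare genes with each other; it divides reads by the summed exon length of a gene and by the library's sum of such values. TMM-scaled CPM (reads of a gene per 1e+06 reads of the library, after trimmed-mean scaling of the totals) is the scale used to compare libraries. The 3 libraries had 533, 466 and 491 reads of Rbm22 itself (ENSMUSG00000024604, chr18:60560736-60572810 in GRCm38, plus strand), or 9.45, 8.25 and 8.75 TPM, so the targeted transcript was present in all 3 cultures. How far it was lowered cannot be read within this group: the libraries labelled si-Control had 798, 916 and 774 Rbm22 reads but only 3, 1 and 0 reads of the heart muscle gene Myh6, which goes against their label as cardiomyocytes.

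The 6 leading markers of the expected cell kinds were all present. Myh6, which encodes the alpha myosin heavy chain (ENSMUSG00000040752, chr14:54941921-54966927, minus strand), stood at 9486, 9292 and 5441 TPM in replicates 1, 2 and 3. Tnnt2, the cardiac troponin T of the purity staining (ENSMUSG00000026414, chr1:135836354-135852260, plus strand), stood at 2045, 2375 and 1659 TPM, and Nppa, the atrial natriuretic peptide (ENSMUSG00000041616, chr4:148000722-148002079, plus strand), at 10439, 15889 and 11065 TPM. Both sarcomere markers were lowest in replicate 3 and Nppa was highest in replicate 2. Upk3b, a uroplakin of mesothelium (ENSMUSG00000042985, chr5:136038496-136046487, plus strand), stood at 572, 576 and 642 TPM. Cdh5, the cadherin of endothelial junctions (ENSMUSG00000031871, chr8:104101625-104144511, plus strand), stood at 56.7, 56.0 and 48.8 TPM, and Csf1r, the growth factor receptor of macrophages (ENSMUSG00000024621, chr18:61100598-61132149, plus strand), at 9.85, 10.7 and 11.3 TPM. On this scale the order Nppa, Myh6, Tnnt2, Upk3b, Cdh5 and Csf1r, from high to low, was the same in every library, and no neighbours in it overlapped, the closest being Nppa at its lowest and Myh6 at its highest. In bulk libraries fewer cells of a kind and less RNA per cell cannot be told apart, and a share of RNA is not a share of cells.

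Transcripts of the mitochondrial genome led the ranking of genes by length-scaled level. They took 5.57 ± 0.206% of all reads (SD, n = 3), and mt-Co1, subunit 1 of cytochrome oxidase, alone reached 62203, 60746 and 57275 TPM. Next came mt-Cytb at 21487, 23499 and 20167 TPM, mt-Nd1 at 20604, 20444 and 19340.4 TPM, mt-Nd2 at 16665, 16088 and 15879 TPM and mt-Nd5 at 15617, 16011 and 15246 TPM. Among mitochondrial genes mt-Co2 (mean 626 TPM), mt-Co3 (413 TPM) and mt-Atp6 (399 TPM) were far below mt-Co1. Parts of the mitochondrial genome have near-identical copies in the nuclear genome, so these levels are uncertain.

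Among nuclear protein-coding genes Nppa ranked 1 by mean TPM at 12464 ± 2982 TPM (SD, n = 3), followed by Eef1a1, the elongation factor that brings tRNA to the ribosome, at 10814 ± 149 TPM. Myh6 ranked 3 at 8073 ± 2282 TPM and Actc1, the cardiac alpha actin, ranked 4 at 7817 ± 998 TPM. Ranks 5 to 10 went to Myl7, the atrial regulatory light chain (5087, 5820.0 and 4961 TPM), the ferritin light chain gene Ftl1 (4286, 4066 and 5063 TPM), the oxygen store myoglobin Mb (4167, 4319 and 3169 TPM), Actb (3542, 3722 and 3996 TPM), the ribosomal protein gene Rplp1 (3663, 3491 and 3739 TPM) and Atp2a2, the calcium pump of the sarcoplasmic reticulum (3821, 3726 and 3079 TPM). Nppa, Myh6, Actc1 and Mb differed most among these between the libraries, while Eef1a1 and Rplp1 had nearly the same level in all 3. Further down the first 25 protein-coding genes stood Sparc, a matrix glycoprotein (2993, 3098 and 3503 TPM), the tropomyosin gene Tpm1 (2939.8, 3196 and 2639.5 TPM), Ankrd1, a stress-responsive ankyrin repeat protein of sarcomere and nucleus (2707, 2828 and 2725 TPM), Cst3 (2546, 2892 and 2301 TPM) and the ATP synthase gene Atp5b (2804, 2565 and 2341 TPM). Eef1a1, Ftl1, Actb, Rplp0, Rplp1, Rps15 and Hsp90ab1 have processed copies in the genome, so their counts are uncertain.

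**Figure D1:**
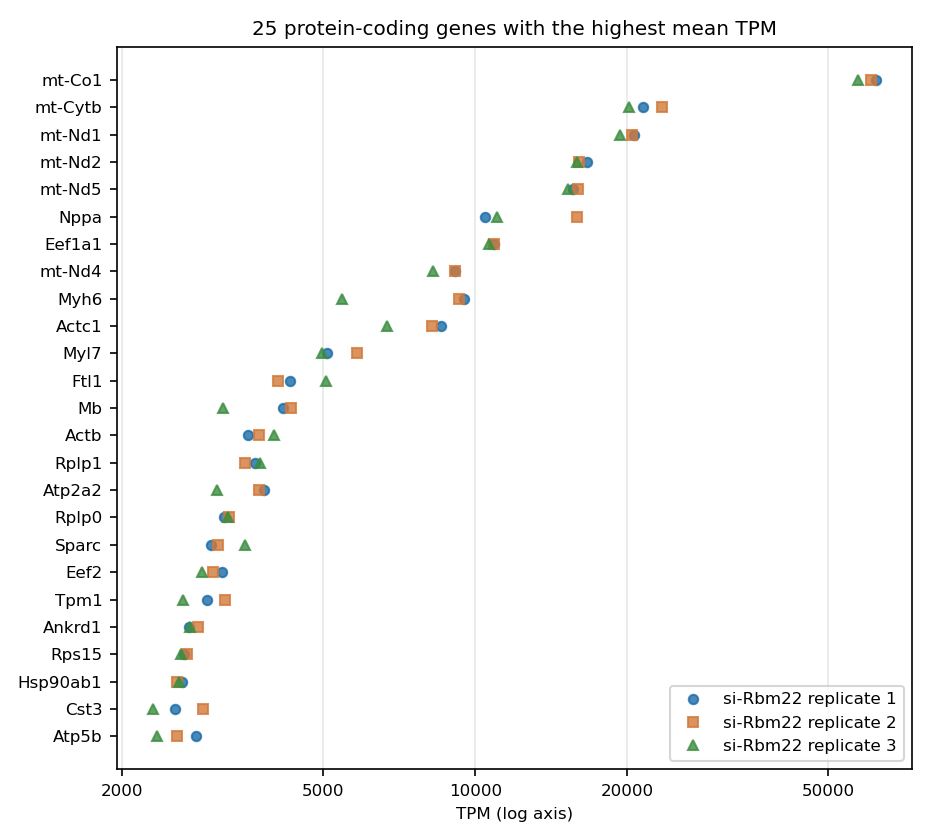
Level in TPM (log axis) of the 25 protein-coding genes with the highest mean over the 3 si-Rbm22 libraries, 1 symbol per replicate. mt-Co1 stands apart at 57275 to 62203 TPM; replicate 3 is the lowest point for Myh6, Actc1, Mb and Tpm1, and replicate 2 is the highest for Nppa.

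The ranking of several sarcomere genes depended on the transcript length used. The summed exon length of Tnnt2 is 7752 bases, whereas its principal annotated transcript has 1200 bases. Scaled by principal transcripts, the mean level of Tnnt2 was 8961 TPM instead of 2026 TPM, which moved it from rank 30 to rank 2 among nuclear protein-coding genes, and that of Tpm1 was 6841 TPM instead of 2925 TPM. By the same change Myl4 moved from rank 224 to 40, Csrp3 from 1253 to 567, Myoz2 from 880 to 409, Tnni3 from 44 to 25, Myl2 from 27 to 16 and Myl7 from 5 to 10. Nppa, Myh6 and Actc1 stayed within ranks 1 to 6 under the lengths tried. By reads alone the leading nuclear genes were Myh6 (674460, 661310 and 384503 reads), Eef1a1, Atp2a2, Tpm1 and Tnnt2. The 10 genes with most reads took 9.10 ± 0.802% of all reads (SD, n = 3), and 50% of the reads fell on 888 to 977 genes.

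All 23 contractile genes listed had reads in every library and each reached 1 TPM. Together they summed to 33790.3, 33633 and 24659 TPM, lowest in replicate 3, and 4, 8 and 12 of them stood among the first 25, 100 and 500 nuclear protein-coding genes. Of the thin filament genes, Tnnc1, the calcium-binding troponin C, stood at 2633, 2714 and 1989 TPM and Tnni3, the mature cardiac troponin I, at 1574, 1651 and 1439.7 TPM. Mybpc3, the cardiac myosin-binding protein C of the thick filament, stood at 2101, 1874 and 1443 TPM. Each of these was lowest in replicate 3, as were Actc1, Tnnt2 and Tpm1 above. Actn2, the alpha-actinin of the Z-disc, stood at 1082, 1052 and 776 TPM, and the intermediate filament gene Des at 421, 476 and 347 TPM. The giant spring protein gene Ttn had 169435, 139290 and 90753 reads, but over its long transcript this was only 137, 113 and 73.9 TPM, again lowest in replicate 3. The lowest mean level of the list was that of Cmya5 (65.8, 70.3 and 41.4 TPM), which encodes a giant protein attached to the sarcomere; 21.7% of its exon length lies under genes of the other strand.

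The start regions of contractile genes are shown because these genes lay lower together in replicate 3. RefSeq promoter windows of GRCm38.p6, from 250 bases before to 50 bases after a gene's start, were at hand for 19 of the 23 genes. A CArG box, the sequence recognised by serum response factor, was searched on both strands. It was found in 4 of these 19 genes (21.1%), against 1.81% of all 27025 genes with a promoter window. Other lists held it too: 2 of 10 cardiac transcription factor, 2 of 12 ventricular, 2 of 11 skeletal muscle and 1 of 11 atrial genes. It was in 0 of 12 calcium handling genes, and in 5 of 74 (6.76%) among the 100 highest nuclear genes by TPM. The box was thus not particular to the contractile list. The TATA motif TATAAA was in 15.8% of the 19 contractile genes against 15.7% of all, and the TEAD motif CATTCC in 31.6% against 16.6%, each on both strands. The 60 bases around each CArG box follow, 5′ to 3′ on the gene's strand with the box in capitals: Actc1 at chr2:114052888-114052947 (minus), Myom1 at chr17:71019433-71019492 (plus), Ldb3 at chr14:34588682-34588741 (minus) and Nebl at chr2:17462984-17463043 (minus).
Actc1: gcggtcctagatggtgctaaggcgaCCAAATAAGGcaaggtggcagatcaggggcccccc
Myom1: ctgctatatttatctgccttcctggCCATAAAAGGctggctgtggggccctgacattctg
Ldb3: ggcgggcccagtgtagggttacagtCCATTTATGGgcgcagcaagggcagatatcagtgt
Nebl: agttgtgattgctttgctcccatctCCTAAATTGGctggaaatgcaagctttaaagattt
The box began 47 bases before the gene's start in Actc1, 99 in Myom1, 35 or 109 in Ldb3, which has windows for a pair of starts, and 162 in Nebl. A match describes the letters in the window and does not show that a factor binds there. Actc1, Myom1, which encodes the M-band protein myomesin (213, 209 and 145 TPM), Ldb3, a Z-disc PDZ protein (397, 379.8 and 307 TPM), and Nebl, the cardiac nebulette (153, 145 and 115 TPM), were each lowest in replicate 3.

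Genes of both chambers were abundant. The 14 atrial genes summed to 16803, 23256 and 17329 TPM and the 13 ventricular genes to 7848, 7546 and 6126 TPM. Most of the atrial sum (mean 19130 TPM) came from Nppa (mean 12464 TPM), which also stands in the stress and fetal list, and Myl7 (mean 5289 TPM). The sums therefore do not give the balance between the chambers. Behind Nppa and Myl7, the atrial list was led by Myl4, the atrial essential light chain (497, 556 and 524 TPM), Mybphl, a myosin-binding protein of atria (242, 304 and 240.0 TPM), and Sln, the calcium pump regulator sarcolipin (229, 301 and 203 TPM). Mybphl and Sln were highest in replicate 2, as was Nppa. Gja5, the connexin of atrial and conduction cells, was at 45.7, 64.3 and 52.1 TPM, and Bmp10, a growth factor of trabecular and atrial muscle, at 23.6, 27.4 and 28.7 TPM. The atrial transcription factor gene Nr2f2 was lower, at 12.8, 14.8 and 15.9 TPM. Kcna5, a potassium channel gene, had 5, 5 and 0 reads, and 0 reads allow up to 0.0814 CPM in replicate 3 (3 counts of the total). Intervals and floors of this kind cover counting error only.

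The ventricular list was led by Myl2, the ventricular regulatory light chain (2389, 2262 and 1833 TPM), Myl3, the ventricular essential light chain (1974, 1895 and 1428 TPM), and Pln, the calcium pump inhibitor phospholamban (1607, 1556 and 1311 TPM). Fhl2, a LIM protein, stood at 953, 891 and 733 TPM and Lbh at 792, 805 and 713 TPM. All 5 were lowest in replicate 3. Of the ventricular transcription factor genes, Irx3 was at 50.8, 54.9 and 43.0 TPM, Irx4 at 24.9, 26.1 and 16.6 TPM, Irx5 at 11.5, 11.8 and 11.8 TPM and Hey2 at 9.87, 10.2 and 8.08 TPM. Irx5 had nearly the same level in all 3 libraries, whereas Irx4 was lower in replicate 3 than in the others. Exons of Nppa (61.5% of their length) and Pln (64.7%) overlap genes on the other strand, and since the strand setting of the counting is not given in the sources used here, those levels are uncertain.

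The ratio of Myl7 to Myl2 in TPM was 2.13, 2.57 and 2.71. That ratio rested on the length used: its mean was 1.13 with the longest or the principal transcript, since the summed exons of Myl2 span 1950 bases and its longest transcript 889. Myl4 over Myl3 was 0.252, 0.293 and 0.367, or 0.685 on average with principal transcripts, so the ventricular form was the higher at each length tried. Both ratios were lowest in replicate 1. Myh6 stood at 725, 676 and 564 times the level of Myh7, the beta heavy chain of fetal and slow muscle, and Myh7 itself had 13.1, 13.7 and 9.65 TPM. Tnni3 stood at 7.57, 7.37 and 10.1 times the level of Tnni1, the fetal troponin I, with Tnni1 at 208, 224 and 142 TPM. The ratio of Actc1 to the skeletal actin gene Acta1 was 149, 129 and 191, and that of Nppa to Nppb, the brain-type natriuretic peptide, 35.3, 40.4 and 33.0. In the heavy chain and troponin I pairs the form of the mature mouse heart was thus the higher one in all 3 libraries, with the fetal troponin I still at over 100 TPM. Nppb (296, 393 and 336 TPM) was highest in replicate 2, like Nppa. Nppa and Nppb are neighbours on chromosome 4, and the TATA motif of each, in capitals, lies within the 60 bases shown (GRCm38.p6, plus strand, chr4:148000662-148000721 for Nppa and chr4:147985840-147985899 for Nppb); it began 9 and 31 bases before the start of the RefSeq gene.
Nppa: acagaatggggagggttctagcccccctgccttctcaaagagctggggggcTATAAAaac
Nppb: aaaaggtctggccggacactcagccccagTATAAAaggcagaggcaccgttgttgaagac

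**Figure D2:**
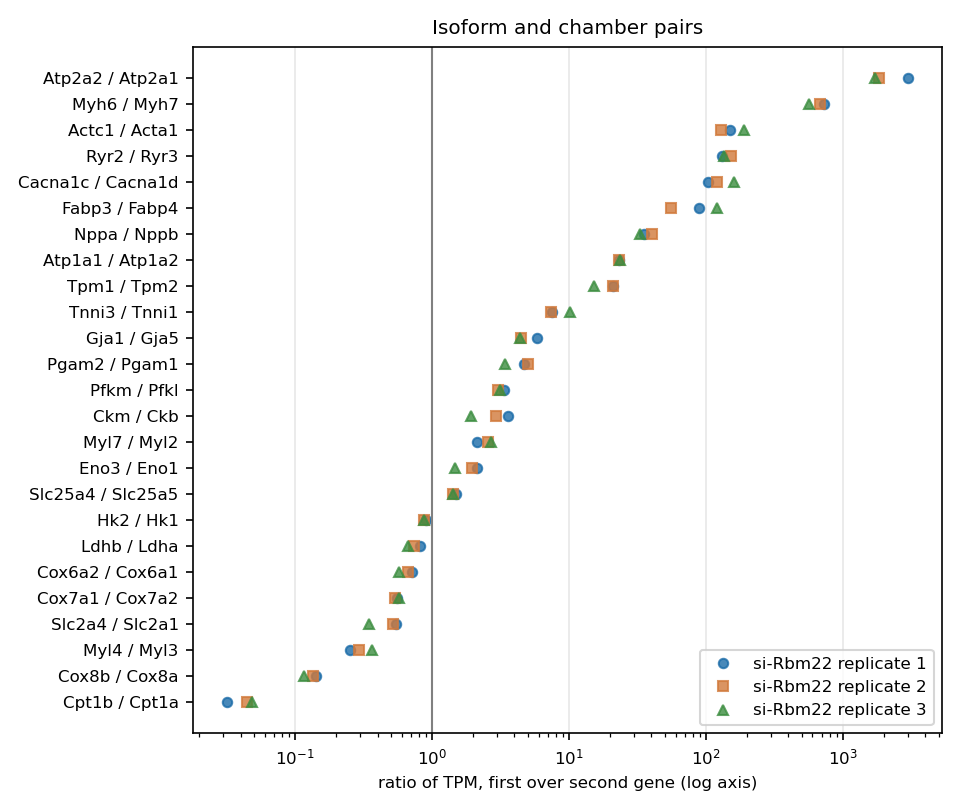
Ratio of TPM (log axis) of the first over the second gene of 25 isoform and chamber pairs, 1 symbol per si-Rbm22 replicate; the vertical line marks equal levels. The symbols of a pair lie close together compared with the distance between pairs, from 0.0320 for Cpt1b over Cpt1a to 2988 for Atp2a2 over Atp2a1.

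Genes of calcium cycling were present over a wide range of levels. Atp2a2 and Pln, the pump and its inhibitor, led the calcium list, followed by Casq2, the calcium store protein calsequestrin (507, 455 and 448 TPM), and Jph2, the junctophilin that ties the store to the cell surface (304, 295 and 275 TPM). Hrc, a calcium-binding protein of the store, stood at 155, 143 and 111 TPM. Ryr2, the release channel, was at 115, 105 and 71.3 TPM, Slc8a1, the sodium-calcium exchanger, at 44.7, 45.1 and 32.4 TPM, and Cacna1c, the pore of the L-type channel, at 36.0, 35.03 and 24.4 TPM. The 3 of them were each lowest in replicate 3. Their order depended on the length used: by principal transcripts the mean of Slc8a1 was 165 TPM, above Ryr2 at 114 TPM and Hrc at 99.3 TPM, and that of Cacna1c was 70.0 TPM. The ratio of Atp2a2 to the fast skeletal pump gene Atp2a1 was 2988, 1828 and 1731, and that of Ryr2 to Ryr3 131, 152 and 135. Of the intercalated disc, which joins cardiomyocytes end to end, the most abundant members by summed exon length were Ctnna1 (936, 951 and 852 TPM), the desmosomal plaque gene Dsp (395, 382 and 271 TPM), Cdh2 (272, 277 and 262 TPM), the ventricular gap junction gene Gja1 (268, 289.7 and 229 TPM) and Jup (251, 260.2 and 220.1 TPM). By principal transcripts Ctnna1 was still the highest, but Gja1 (578 TPM), Jup (335 TPM) and Cdh2 (308 TPM) all exceeded Dsp (241 TPM). Cdh2 varied little between the libraries, and Dsp was lowest in replicate 3.

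Conduction genes were scarce beside these. The 18 of them summed to 275, 306 and 235 TPM. Gjc1, the connexin of slow conduction, stood at 47.4, 59.3 and 41.5 TPM, Cacna1g, a T-type calcium channel, at 35.1, 29.6 and 27.3 TPM, and Hcn2, a pacemaker channel, at 25.6, 24.0 and 18.1 TPM. Hcn4, the main pacemaker channel of the sinus node, was at 3.76, 4.33 and 4.31 TPM, Tbx3 at 2.43, 3.07 and 2.99 TPM and Shox2 at 0.714, 0.685 and 1.72 TPM. Isl1, another sinus node factor, had 15, 12 and 16 reads. None of these 4 node genes exceeded 4.33 TPM in any library. The cardiac transcription factor genes stood higher, at 1425, 1329 and 1292 TPM in sum. Hopx was at 278, 239.7 and 223 TPM, Gata4 at 214, 204 and 203 TPM, Nkx2-5 at 159, 155 and 144 TPM, Tead1 at 142, 135 and 151 TPM and Srf, the factor of the CArG box, at 121, 121 and 113 TPM. These 5 differed little between the libraries, apart from Hopx, which was highest in replicate 1. Hand1 had 1.75, 1.37 and 1.38 TPM against 91.5, 85.0 and 81.6 TPM of Hand2.

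Isoform pairs of energy metabolism did not all lean to the muscle form. Cytochrome oxidase subunits switch from ubiquitous to muscle forms as the heart matures. Cox6a2 over Cox6a1 was 0.714, 0.667 and 0.572, Cox7a1 over Cox7a2 was 0.558, 0.541 and 0.572 and Cox8b over Cox8a was 0.142, 0.135 and 0.115, so the ubiquitous form was the higher one for all 3 subunits in each library. Glycolysis pairs lay on either side: Pgam2 over Pgam1 was 4.70, 5.04 and 3.41 and Pfkm over Pfkl was 3.34, 3.05 and 3.13, the muscle form being higher. Hk2 over Hk1, the hexokinases of insulin-responsive muscle and of most cells, was 0.906, 0.877 and 0.873 (0.433 by principal transcripts), and Ldhb over Ldha, the lactate dehydrogenases of heart and of skeletal muscle, was 0.811, 0.736 and 0.669 (0.476), so the heart or muscle form was the lower one there. Eno3 over Eno1 was 2.12, 1.96 and 1.47, but 0.770 when the mean levels were scaled by principal transcripts, so its side depended on the length; Eno1 and Pgam1 have processed copies and are uncertain. Ckm over Ckb, the creatine kinases, was 3.57, 2.92 and 1.94, lowest in replicate 3, and 1.498 by principal transcripts. Cpt1b, the muscle carnitine transferase that admits fatty acids to mitochondria, had 1.32, 1.60 and 2.00 TPM against 41.2, 35.8 and 41.3 TPM of the liver form Cpt1a; 81.4% of the exon length of Cpt1b lies under another gene, so its level is uncertain. Slc2a4, the insulin-responsive glucose carrier, stood at 74.8, 73.2 and 49.99 TPM and the basal carrier Slc2a1 at 137, 140.0 and 145 TPM. Fabp3, the fatty acid binding protein of heart, had 1491, 1054 and 1358 TPM and was lowest in replicate 2.

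Transcripts of other cell kinds were present in all 3 libraries, with fibroblast, mesothelial and smooth muscle genes at the highest sums, which overlapped between the 3 lists. The summed level of the 17 mesothelial and epicardial genes was 3759, 3795 and 4183 TPM. Upk3b led them, followed by Upk1b, another uroplakin (559, 499 and 631 TPM), Lrrn4 (491, 474 and 564 TPM), Gpm6a (309.9, 305 and 367 TPM) and Krt8, a keratin of simple epithelia (265, 299 and 256 TPM). Msln, the mesothelin of the cell surface, stood at 223, 222 and 265 TPM and Wt1, a transcription factor of the epicardium, at 49.0, 51.1 and 48.1 TPM. All 17 genes had reads in every library, and 12 of them lay higher in replicate 3 than in the mean of the others. The fibroblast genes summed to 4126, 4144 and 4470.3 TPM, led by Col1a1 (1262, 1234 and 1292 TPM), fibronectin Fn1 (1141, 1121 and 1152 TPM), Col3a1 (561, 564 and 570.1 TPM) and the collagen cross-linking enzyme gene Lox (335, 398 and 451 TPM). Collagen and fibronectin genes are made by other cells too, and the more selective Pdgfra (26.2, 22.5 and 29.1 TPM), Dpt (5.05, 5.15 and 7.45 TPM) and Tcf21 (80.8, 73.8 and 99.6 TPM) were lower. Postn, a matrix protein of activated fibroblasts, had 33.2, 44.1 and 59.1 TPM, lowest in replicate 1.

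Smooth muscle genes summed to 3459, 4204 and 4028 TPM and pericyte genes to 272, 309 and 296 TPM, and members of both lists ranged from high to low. Acta2, the smooth muscle actin also made by immature cardiomyocytes, stood at 1734, 2196 and 1993 TPM and Tagln at 1504, 1788 and 1794 TPM, with 67.9% of the exon length of Tagln shared with another gene. Smtn, a cytoskeletal protein of smooth muscle, was at 153, 144 and 161 TPM. By contrast Myh11, the smooth muscle myosin, had 5.53, 7.85 and 5.45 TPM and Cnn1 8.44, 13.0 and 15.2 TPM. Of pericyte genes, Mcam, an adhesion molecule also found on endothelium, led with 125, 156 and 157 TPM, and Abcc9, a subunit of potassium channels that heart muscle also makes, was at 79.7, 69.9 and 55.9 TPM. Pdgfrb was at 26.2, 36.7 and 41.1 TPM and Rgs5 at 0.936, 0.915 and 1.91 TPM, and Vtn had 0 reads in all 3 libraries (up to 0.0803 to 0.0814 CPM by the floor of 3 counts).

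The 20 endothelial genes summed to 465, 489 and 469.6 TPM, the steadiest of the cell-kind sums. Eng, a coreceptor also found outside endothelium, led with a mean of 109 ± 8.40 TPM (SD, n = 3), then came Cdh5, the angiopoietin receptor Tek (46.2, 48.8 and 55.2 TPM), Esam (37.3, 32.1 and 38.8 TPM) and Emcn (31.5, 29.4 and 29.3 TPM). Pecam1, a junction protein of endothelium, stood at 25.5, 27.7 and 24.7 TPM and Vwf, which vessels store as they mature, at 0.836, 1.41 and 0.906 TPM. Within the list, members differed in direction: Sox18, an endothelial transcription factor, was at 14.6, 16.9 and 5.93 TPM and Kdr, the main VEGF receptor, at 12.2, 17.2 and 9.12 TPM, both lowest in replicate 3, whereas Ptprb, an endothelial phosphatase, was at 18.1, 15.9 and 26.8 TPM, highest there. Of the lymphatic list, Pdpn, which mesothelium also makes, held 451, 454 and 486 TPM, while Lyve1 had 0.227, 0.583 and 0.456 TPM and Reln 0.175, 0.179 and 0.184 TPM. Of the endocardial list, Npr3 had 8.40, 10.99 and 9.79 TPM, Nfatc1 6.71, 6.28 and 7.80 TPM and Cytl1 1, 0 and 4 reads.

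Macrophage genes summed to 388, 452 and 513 TPM, and 3 genes held most of this. Lyz2, a lysozyme, was at 124, 167 and 190.3 TPM, the protease gene Ctss at 98.6, 107 and 120.4 TPM and Mertk, a receptor for dying cells, at 93.1, 75.2 and 111 TPM, whereas the complement gene C1qa had 3.27, 7.54 and 1.28 TPM, Adgre1 1.58, 1.63 and 1.85 TPM and Ptprc, the pan-leukocyte CD45, 0.331, 0.274 and 0.400 TPM. C1qa had 36, 83 and 14 reads, highest in replicate 2 and lowest in replicate 3, which was not the order of Lyz2. The resident macrophage genes Cx3cr1 and Cd163 had at most 9 and 1 reads in a library. Other blood cells left few reads: the 6 genes listed for other leukocytes summed to 7.47, 10.3 and 6.93 TPM with Nkg7 at 0 reads, and the 9 red cell and platelet genes to 3.61, 5.57 and 5.599 TPM. Schwann cell and neuron genes summed to 89.0, 96.8 and 86.9 TPM, mostly Mbp (35.4, 33.2 and 38.5 TPM) and Tubb3 (32.2, 36.7 and 29.1 TPM), but the mean of Mbp was 325 TPM by its principal transcript against 35.7 TPM by summed exons, while the defining Sox10 and Th had at most 34 and 1 reads in a library, the 34 of Sox10 in replicate 3.

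Markers of tissues outside the heart were near 0. Myod1, Myf5 and Cdh15, which define skeletal muscle precursors, had 0 reads in all 3 libraries, and Pax7 and Myog had 1 read each over all 3. The skeletal muscle list still summed to 335, 322 and 210.2 TPM through Ckm and Acta1, which heart muscle shares. The 8 genes of lung, liver and thymus summed to 4.27, 5.15 and 8.87 TPM. Xist, from the inactive X chromosome (62.1, 45.3 and 63.8 TPM), and the Y-linked Ddx3y (37.6, 46.3 and 36.2 TPM) and Eif2s3y (31.7, 35.5 and 22.6 TPM) were present together in every library. The 22 list entries without a row in the table were not analysed here.

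**Figure D3:**
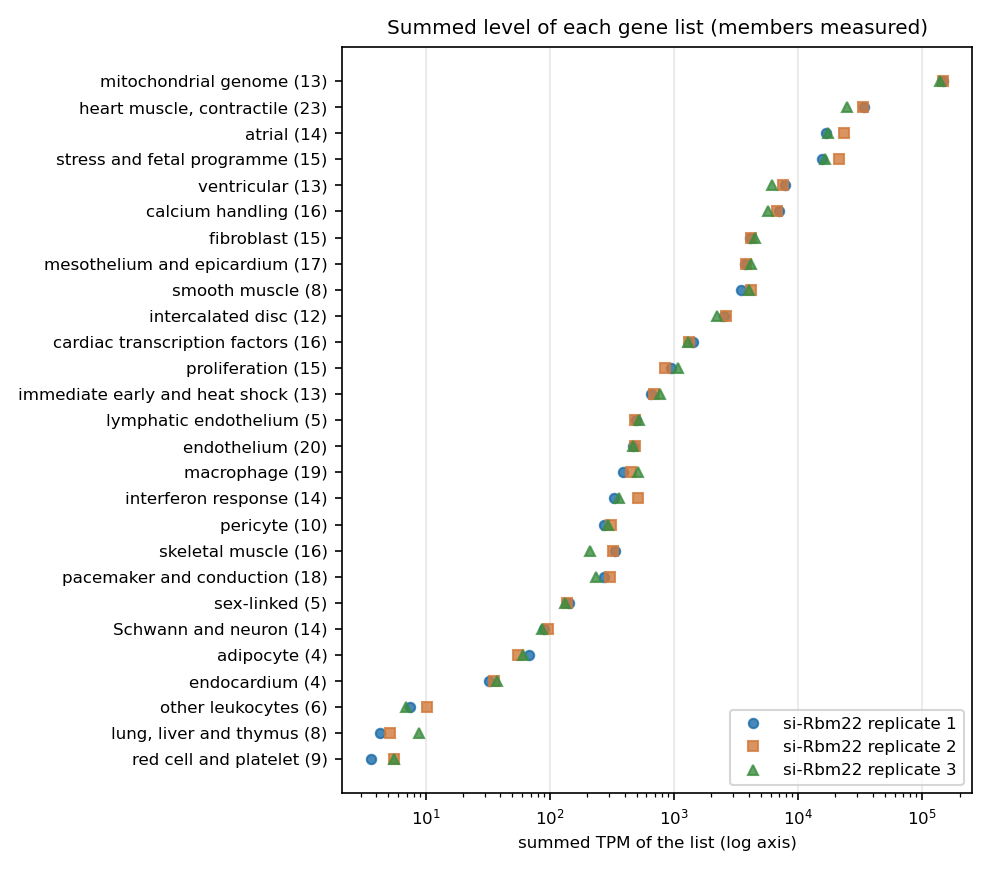
Summed TPM (log axis) of each gene list in the 3 si-Rbm22 libraries, 1 symbol per replicate, with the number of members measured in brackets. Contractile, atrial and ventricular genes lie above all lists of other cell kinds, fibroblast, mesothelium and smooth muscle come next, and the red cell, leukocyte and other-organ lists lie below 11 TPM.

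The cultures carried transcripts of cycling cells. The 15 proliferation genes summed to 955, 843 and 1078 TPM, highest in replicate 3. Pcna, the clamp of DNA replication, stood at 177, 155 and 203 TPM, the mitotic kinase gene Plk1 at 87.5, 83.4 and 96.5 TPM and Mki67 at 64.5, 55.9 and 63.9 TPM. Which cell kind these came from cannot be told in bulk libraries. Stress-linked genes other than Nppa included Ccn2, a matrix target of mechanical signalling (965, 1092 and 1311 TPM), the metallothionein Mt1 (329, 335 and 302 TPM) and the cytokine gene Gdf15 (76.2, 71.9 and 84.8 TPM). Of immediate early genes, Ier3 stood at 195, 203 and 219 TPM, Egr1 at 70.7, 70.1 and 69.1 TPM and Fos at 20.8, 19.9 and 22.4 TPM. Egr1 and Fos differed little between the libraries, whereas Ccn2 was highest in replicate 3.

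The 3 libraries differed by more than counting noise, and replicate 3 stood farthest from the others. The biological coefficient of variation fitted by edgeR over 13797 genes was 10.8%, and 8.05% without replicate 3. Chi-square per degree of freedom, which counting noise alone would put near 1, was 10.9 between replicates 1 and 2, 31.6 between 1 and 3 and 32.5 between 2 and 3. Of the 10978 genes whose mean reached 5 CPM, 106 (0.966%) differed at least 1.5-fold between replicates 1 and 2, 204 (1.86%) between 1 and 3 and 315 (2.87%) between 2 and 3. No pair could thus be taken for 1 library in duplicate. The median coefficient of variation of a gene over the 3 libraries was 10.4% at 5 to 20 CPM, 6.09% at 20 to 100 CPM, 5.29% at 100 to 500 CPM and 6.75% above, whereas counting noise would give 4.82, 2.47, 1.31 and 0.608%. At each level the spread exceeded what counting noise gives. Steady genes were also found: Ddx39b, an RNA helicase of splicing and export, had 177, 177 and 177 TMM-scaled CPM and Cdc34, a ubiquitin-conjugating enzyme gene, 90.5, 90.4 and 90.3.

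Each library was set against the mean of the other 2 on the scale of TMM-scaled CPM, and a gene counted as higher or lower when it was at least 1.5-fold apart, with no test since 1 library has no replicate. In replicate 3, 51 of the 10978 genes (0.4646%) were higher and 137 (1.248%) lower, 1.713% in all; with scaling by library totals the split was 92 and 92. In replicate 2, 71 (0.6467%) were higher and 42 (0.3826%) lower, 1.029% in all, or 57 and 55 by library totals. In replicate 1, 11 (0.1002%) were higher and 39 (0.3553%) lower, 0.4555% in all, or 8 and 48. The 3 sets of values share libraries and are not independent of each other: a library that stands apart also moves the mean that the others are set against.

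Contractile genes were lower in replicate 3 as a group. All 23 lay below the mean of replicates 1 and 2, with a median log2 deviation of −0.43 and a range from −0.85 to −0.18, whereas 51.2% of all genes lay below with a median of −0.01. By library totals all 23 lay below as well, with a median of −0.37. Those lower by at least 1.5-fold were 5 of 23, against 1.248% of all genes (4 of 23 by library totals), among them Myh6 (18289, 18131 and 10121 CPM, log2 deviation −0.85), Ttn (4594, 3819 and 2389 CPM, −0.82), Cmya5 (−0.78) and Myom1 (−0.60). Myh6 was close in replicates 1 and 2 and apart in 3, whereas Ttn also differed between 1 and 2. The smallest deviations were those of Pdlim5 (−0.18), Csrp3 (−0.20) and Smpx (−0.22).

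Other genes of the cardiomyocyte lay on the same side in replicate 3. The shares over all genes to set beside the counts here are 51.2% below and 1.248% lower by at least 1.5-fold. Of 15 calcium handling genes with at least 5 CPM, 14 lay below the other libraries (median −0.33), and Ryr2 (−0.69) and Cacna1c (−0.60) were lower by at least 1.5-fold. Of 12 ventricular genes 11 lay below (median −0.38, 10 of 12 by library totals, with Irx4 at −0.68 and Kcnd2, a potassium channel of the early repolarisation, at −0.85). All 12 intercalated disc genes lay below (median −0.31, 11 of 12 by library totals), and Ctnna3, the heart form of alpha catenin, was lower at −0.77. Atrial genes lay below by less (9 of 11, median −0.20), as did the cardiac transcription factors (12 of 14, median −0.17). Of the 16 skeletal muscle genes only 2 reached 5 CPM, the muscle creatine kinase gene Ckm (−0.67) and the skeletal actin gene Acta1 (−0.85). Both were lower by at least 1.5-fold too.

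Genes of other cell kinds lay on either side in replicate 3. All 15 proliferation genes lay above (median 0.23), as did all 6 macrophage genes with at least 5 CPM (median 0.22), 11 of 14 fibroblast genes (median 0.19, 14 of 14 by library totals) and 12 of 17 mesothelial genes (median 0.10). Of these only Lum, a proteoglycan of fibroblasts (0.66), reached 1.5-fold. The 6 macrophage genes are a part of the 21 listed. Of those under the cut, C1qa was lowest in replicate 3, while Adgre1 and Ptprc were highest there, at the low levels given above. By comparison, 48.8% of all genes lay above and 51.2% below, with 0.4646% higher and 1.248% lower by at least 1.5-fold. Of 5 pericyte genes 3 lay below (median −0.15), as did 2 of 3 Schwann cell and neuron genes (median −0.30). These are few genes, at counts near the share of all genes. In the endothelial list 12 of 17 lay below (median −0.17), with Sox18 (−1.47), Kdr (−0.75) and Robo4 (−0.72) lower by at least 1.5-fold and Ptprb higher (0.59). Summed contractile TPM in replicate 3 was 0.731 of the mean of the others, while the summed fibroblast and mesothelial levels were the highest of the 3 libraries. The part of these other cell kinds in the lower contractile levels was not tested.

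**Figure D4:**
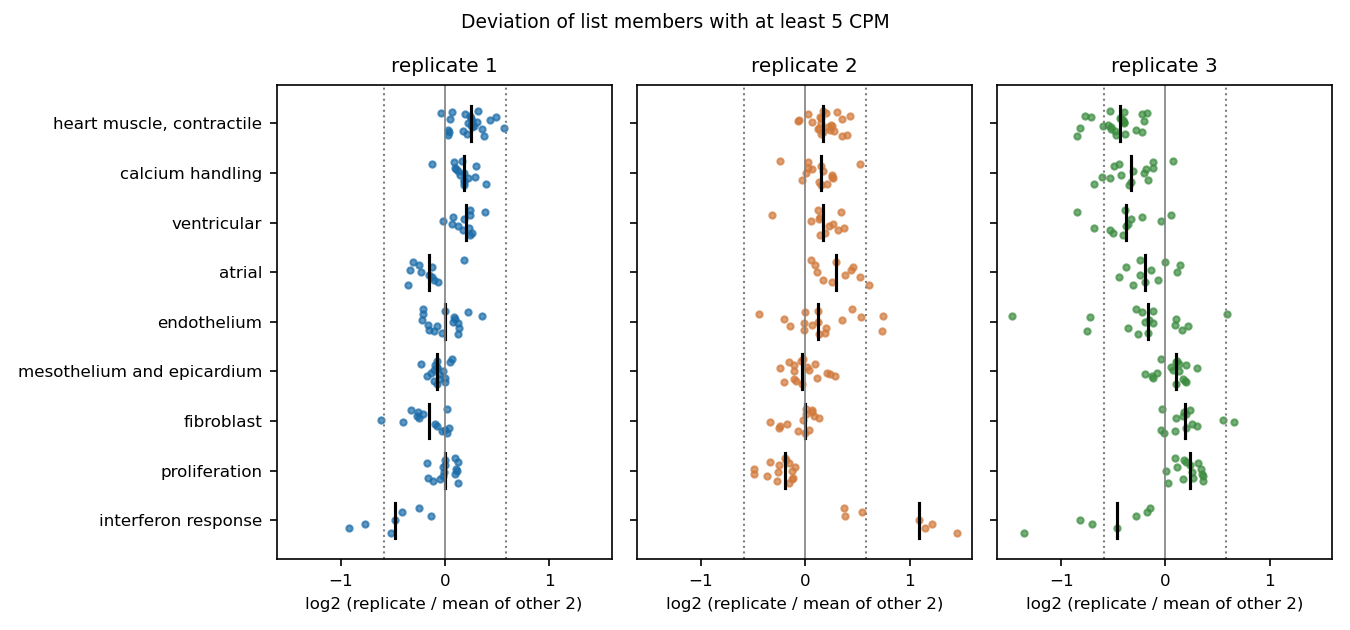
log2 of TMM-scaled CPM in 1 si-Rbm22 library over the mean of the other 2 for list members with at least 5 CPM; each point is a gene, the black bar the list median and the dotted lines 1.5-fold either way. In replicate 3 all 23 contractile points lie left of 0 and all 15 proliferation points right of it; in replicate 2 the 7 interferon and 11 atrial points lie right of 0.

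Transcript length moved with the deviation of replicate 3. Over 10856 protein-coding genes the Spearman correlation across genes of deviation with principal transcript length was −0.13 in replicate 3, 0.11 in replicate 1 and 0.07 in replicate 2, as a description, since genes share their library. The median deviation of replicate 3 was 0.00 for 532 genes under 1000 bases and −0.11 for 601 genes of at least 8000 bases. Among contractile genes, all 10 under 2000 bases lay below in replicate 3 with a median of −0.39, and the long transcripts of Myh6, Ttn and Cmya5 had the lowest values, given above. The 10 short contractile genes thus lay below the median of other genes of like length. The part of length in these values was not tested. Dst, the giant linker dystonin (968, 924 and 563 CPM, deviation −0.75), and Frem2, a large matrix protein gene (119, 125 and 70.3 CPM, deviation −0.79), were among the 10 lowest in replicate 3, together with Aqp4, a water channel gene (58.5, 51.9 and 26.3 CPM, deviation −1.07).

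**Figure D5:**
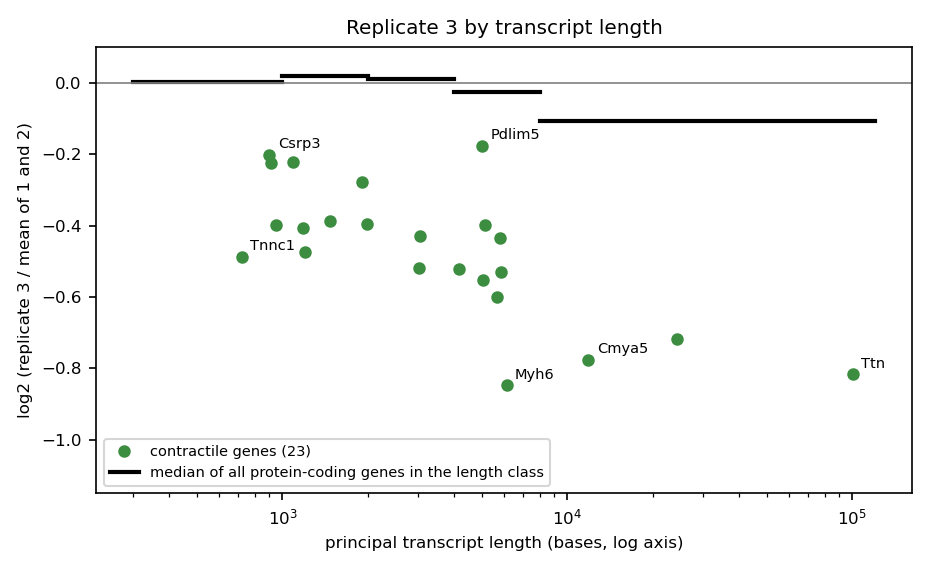
log2 deviation of replicate 3 from the mean of replicates 1 and 2 against principal transcript length (bases, log axis) for the 23 contractile genes (points), with the median of all protein-coding genes of each length class (black bars). All points lie below the bars of their class, and Myh6, Ttn and Cmya5 lie lowest, from −0.85 to −0.78.

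The highest genes of replicate 3 had other roles. They included Itga4, an integrin subunit (19.3, 19.2 and 35.8 CPM, deviation 0.89), Ptgs2, the inducible prostaglandin synthase (58.9, 47.0 and 89.8 CPM, 0.76), Fst, the activin antagonist follistatin (21.7, 16.1 and 30.5 CPM, 0.69), and Nqo1, an oxidant-responsive reductase gene (142, 89.8 and 175 CPM, 0.60). Ptgs2, Fst and Nqo1 were also among the lowest of replicate 2, with replicate 1 between. Igfbp2, a binding protein of insulin-like growth factors, was at 75.5, 66.8 and 109 CPM. Rps27a (68.5, 95.9 and 142 CPM) was also high in replicate 3, but it has processed copies and its counts are uncertain.

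In replicate 2 the atrial and the interferon genes lay above the other libraries as groups. All 11 atrial genes with at least 5 CPM lay above the mean of replicates 1 and 3 (median 0.29, against 50.6% of all genes above with a median of 0.00), and Nppa (2588, 3987 and 2647 CPM, deviation 0.61) was the member higher by at least 1.5-fold, 1 of 11 against 0.6467% of all genes. Nppa in replicates 1 and 3 was close. All 7 interferon response genes with at least 5 CPM lay above (median 1.09), and 4 of the 7 were higher by at least 1.5-fold: Ifit1 (198, 437 and 129 reads), Ifit3 (125, 312 and 164 reads), Irf7, the factor that amplifies the response (189, 442 and 201 reads), and Oasl2 (332, 642 and 286 reads). Their levels were nevertheless low, 7.05, 15.5 and 4.62 TPM for Ifit1, and replicate 2 was also highest in genes with a mean below 5 CPM such as Usp18 (79, 325 and 80 reads) and Isg15 (68, 274 and 92 reads). The cut of 5 CPM was set on the mean of all 3 libraries, replicate 2 included. Ifit1 and Ifit3 passed it only through replicate 2, so the cut itself favoured the count and the median given for this list. The summed level of all 14 interferon genes, which does not depend on the cut, was 332, 514 and 361 TPM.

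Among genes with at least 20 CPM the 4 highest of replicate 2 were Scd1 and Scd2, which desaturate fatty acids (128, 215 and 110.3 CPM and 956, 1479 and 743 CPM), the secreted chaperone clusterin Clu (463, 779 and 407 CPM) and the matrix glycoprotein Thbs4 (63.2, 97.9 and 49.2 CPM). Their deviations were 0.85, 0.80, 0.84 and 0.80. Gpx3, the secreted glutathione peroxidase (307, 491 and 305 CPM), Angpt1, a ligand of Tek (26.2, 37.97 and 19.7 CPM), and Kdr (31.6, 45.1 and 22.8 CPM) were also among the 10 highest. In each of these replicate 2 stood above both others. All 15 proliferation genes lay below in replicate 2 (median −0.19), and none was lower by 1.5-fold, Aurkb (−0.49) and Birc5 (−0.49) coming nearest.

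Replicate 1 stood apart least. Its highest named genes were mt-Atp6 (113, 64.0 and 55.3 CPM, deviation 0.92), the slow skeletal troponin T gene Tnnt1 (28.7, 21.8 and 16.2 CPM, 0.60) and Ctnna3 (36.1, 28.8 and 19.1 CPM, 0.59). Its lowest from 20 CPM up were Rps27a (−0.80), whose counts are uncertain, and Lrrc32 (−0.68). Next came Postn (82.8, 111 and 142 CPM, −0.61), Pdgfrb (41.1, 58.3 and 62.3 CPM, −0.55), Itga4 (−0.51) and Lyz2 (46.7, 63.7 and 69.3 CPM, −0.51). Postn, Pdgfrb and Lyz2 stand in the fibroblast, pericyte and macrophage lists, and the others in none of these. Of 5 pericyte genes 4 lay below, with a median of only −0.03, against 49.8% of all genes below. Of 14 fibroblast genes 10 lay below in replicate 1 (median −0.15) and Postn was lower by 1.5-fold, 1 of 14 against 0.3553% of all genes. Of 8 smooth muscle genes 6 lay below (median −0.25), with Cnn1 at −0.72, the member lower by 1.5-fold. Contractile genes lay above in 22 of 23 cases (median 0.25), and in 21 of 23 in replicate 2 (median 0.17), both set against means that include the low values of replicate 3. All 7 interferon genes lay below in replicates 1 and 3 (medians −0.48 and −0.47), both set against means that include the high values of replicate 2. Lower by 1.5-fold were Ifit3 and Irf7 in replicate 1, 2 of 7 against 0.3553% of all genes. In replicate 3 they were Ifit1, Irf7 and Oasl2, 3 of 7 against 1.248%. These calls thus do not stand apart from the excess in replicate 2.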

How the data were processed

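Per the labels' protocols, RNA was extracted with TRIzol and sequenced after preparation with the Vazyme VAHTS Universal V6 kit. The deposited values are whole-number read counts per Ensembl gene that the authors had not normalized, since column totals differ. Per the submitters' processing notes, build GRCm38 and the tools HTSeq, HISAT2, fastp and DESeq2 were used, with neither versions nor roles. Annotation release, strand setting and the handling of multiply mapped reads: not given in the sources used here. Every column of the table belongs to a sample of the series (0 others). Of 18951 identifiers, 18868 were named by GENCODE M21 (GRCm38) and 83 (0.00988% of reads) were left unnamed.

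Totals of 36860678 to 37344860 reads make counting error small above 5 CPM. TPM was computed from counts and summed exon length, CPM with TMM factors from edgeR 4.0.16 in R 4.3.3, and dispersion with an intercept only after filterByExpr. Python 3.11.15 and pandas 2.3.3 did the rest. The deviation and dispersion steps were also run on simulated counts. These had the same spread for every gene, unlike the data, so the values here draw no support from them. With 1 group no test was run and no p-value is given. A floor of 3 counts was set for genes at 0.

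The cell-kind and pathway lists (27 lists, 364 entries, 342 with a row), pairs and members were chosen with earlier results of these data known. Named genes were Rbm22, 6 leading markers, the 25 highest by TPM, the 10 highest by reads, leading, absent and 1.5-fold apart list members, all pairs, the 10 largest deviations each way per library (at least 20 CPM), and the 10 largest and smallest coefficients of variation (at least 50 CPM). Other list members are named where they define a cell kind or show a contrast, and were chosen after their values were seen. Some members are not reported here. Alternatives were DESeq2 1.42.0 size factors (RLE), library totals, other transcript lengths, other thresholds, the mitochondrial genome left out, and each replicate left out. Principal transcript length was added after seeing the data.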

Additional observations from a re-analysis of the deposited data

How the results depend on the processing

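Of 154 alternative values of 24 results, 106 stayed within the spread between replicates or within 1.5 times of a count, 48 moved and 0 reversed. No paired analysis was possible because the results describe 1 group and come from no test. Gene length moved the summed levels: with longest transcripts atrial 14947, ventricular 9015, mesothelium 3330.2, macrophage 358 and fibroblast 4516 TPM; with principal transcripts (chosen after seeing the data) contractile 38012, atrial 14555, ventricular 8478, mesothelium 3137, macrophage 319 and fibroblast 4457 TPM. With the mitochondrial genome left out they were contractile 35923, ventricular 8394, mesothelium 4574, endothelium 555, macrophage 528 and fibroblast 4966 TPM. Ratios by longest and by principal transcripts were 521 and 521 for Myh6 over Myh7, 11.3 and 6.04 for Tnni3 over Tnni1, 1.13 and 1.13 for Myl7 over Myl2, and 0.237 and 0.685 for Myl4 over Myl3. Genes 1.5-fold apart in replicates 1, 2 and 3 numbered 428, 544 and 666 from 1 CPM, and 6, 24 and 68 from 20 CPM; at 2-fold they numbered 1, 15 and 13, and at a 25% difference 558, 772 and 1302. Contractile genes lower in replicate 3 numbered 0 at 2-fold and 18 at a 25% difference. Interferon genes higher in replicate 2 numbered 10 from 1 CPM, 0 from 20 CPM and 7 at a 25% difference. With a replicate left out, the coefficient of variation ranged from 8.05% (without replicate 3) to 12.4% (without replicate 1). The genes apart ranged from 106 to 204 for replicate 1, 106 to 315 for replicate 2 and 204 to 315 for replicate 3. All 23 contractile genes lay below in replicate 3 in each case, with 6 lower by 1.5-fold against either other library alone, while proliferation genes above ranged from 12 to 15. Summed levels ranged from 29146 to 33712 TPM (contractile), 17066 to 20293 (atrial), 6836 to 7697 (ventricular), 3777 to 3989 (mesothelium), 467 to 479 (endothelium), 420.4 to 483 (macrophage) and 4135 to 4307 (fibroblast). Ratios ranged from 619.8 to 700.5 (Myh6 over Myh7), 7.47 to 8.86 (Tnni3 over Tnni1), 2.35 to 2.64 (Myl7 over Myl2) and 0.273 to 0.330 (Myl4 over Myl3). Of 72 list medians of deviation, 6 changed sign with library totals (adipocyte and cardiac transcription factors in replicate 2, lymphatic in 3, and pacemaker, proliferation and Schwann cell in 1). From 5 CPM up the spread between the libraries, not depth, limits precision. The cause of the moved values was not tested.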

Other observations

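Ligands and receptors that link the cell kinds of the heart were measured in the same 3 libraries, from a list of 21 pairs, and are given as TPM in replicates 1, 2 and 3 with no test. Vegfa, the vascular growth factor made by heart muscle, stood at 198, 214 and 179 TPM, against 12.2, 17.2 and 9.12 TPM of its main receptor Kdr and 4.03, 3.86 and 4.77 TPM of the decoy receptor Flt1. Csf1, the growth factor of macrophages, stood at 325, 358 and 399 TPM and its receptor Csf1r at 9.85, 10.7 and 11.3 TPM, while the other ligand of that receptor, Il34, had 3.53, 3.81 and 5.44 TPM. For Vegfa with Kdr and for Csf1 with Csf1r the ligand was the more abundant transcript in every library. Gas6 (360.0, 372 and 351 TPM) and its receptor Axl (440.4, 466 and 522 TPM) were both abundant. Cxcl12, a chemokine, was at 130.0, 102 and 149.6 TPM, with Cxcr4 at 4.66, 5.07 and 8.95 TPM and the scavenging receptor Ackr3 at 10.7, 11.2 and 9.61 TPM.

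Further pairs carry signals to and from cardiomyocytes. Erbb2, the coreceptor of neuregulin, stood at 51.8, 54.3 and 45.6 TPM, Erbb4, which binds it, at 11.5, 11.1 and 9.32 TPM, and the ligand gene Nrg1 at 10.9, 11.5 and 11.5 TPM. Edn1, the endothelin precursor, stood at 86.0, 85.0 and 107 TPM against 9.45, 8.66 and 6.50 TPM of its receptor Ednra. For angiotensin, Agtr1a was at 7.61, 7.23 and 6.11 TPM and Agtr2 had 0, 0 and 1 reads. Apln, the apelin gene, was at 41.6, 43.7 and 44.4 TPM, while its receptor gene Aplnr had 13, 29 and 0 reads. Npr1, the signalling receptor of the peptide encoded by Nppa, stood at 7.67, 8.06 and 7.22 TPM beside the 10439, 15889 and 11065 TPM of the ligand. Bmp10 had 23.6, 27.4 and 28.7 TPM and its receptor genes Acvrl1 and Bmpr2 11.4, 12.1 and 14.8 and 29.4, 29.7 and 31.2 TPM. The cells that carried each transcript cannot be told apart in bulk libraries.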
